A study of Mus musculus with 12 samples.

Results

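MHC class II molecules carry peptides from proteins taken up into endosomes to the surface of antigen-presenting cells, where CD4+ T cells read them. Each molecule is an alpha and a beta chain, held by the invariant chain until cathepsins degrade that chain and the DM chaperone loads a peptide. In the liver the genes are known mainly from Kupffer cells, the resident macrophages, and from dendritic cells and B cells, while hepatocytes at rest hardly express them. Described here are 8 genes of this route out of 13097 in the deposited table. They were taken by name from a list drawn up with earlier results of these data known. H2-Aa, H2-Ab1 and H2-Eb1 encode antigen-binding chains, and Cd74 encodes the invariant chain. H2-DMa and H2-DMb1 encode the DM heterodimer, Ctss encodes cathepsin S, which cuts the invariant chain, and Ciita encodes the coactivator that switches class II genes on. All 8 were in the table and passed the filter on low counts, as did every other gene there.

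The mice were female C57BL/6, aged 3 months, and liver RNA of 12 was sequenced, 3 individual mice in each of 4 groups. The ethanol-fed groups, labelled Sirt6 liver-specific knockout or wild type, received a Lieber-DeCarli diet with 5% ethanol for 10 days and a single ethanol binge of 5 g/kg. The pair-fed groups, with the same genotype labels, received an isocaloric control diet over the same time and a binge of maltose dextrin. Sirt6 encodes a chromatin deacylase, and which promoter drove its deletion is not stated in the labels. Ethanol feeding below means diet and binge together, whose parts cannot be told apart in these groups.

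Total counts ranged from 17305141 to 18279809 per library, so that 1 read was worth about 0.056 CPM, the unit of counts scaled to library size. Sirt6 had 53, 58 and 62 counts in ethanol-fed and 52, 46 and 47 in pair-fed labelled knockout mice, against 67, 54 and 60 in ethanol-fed and 51, 49 and 68 in pair-fed wild type mice. Its counts did not follow the label. Which exons were deleted is not stated in the labels, and reads over the rest of a gene can persist after an exon is lost, so counts over the whole gene do not check the genotype here. The 6 livers carry the name labelled knockout in all that follows, and a direction between genotypes is one between labels. Hepatocyte identity of the tissue was plain from Alb, the albumin gene, which took 6.1 to 9.55% of counts in ethanol-fed labelled knockout and 6.37 to 8.45% in ethanol-fed wild type mice. It took 11 to 12.7% in pair-fed labelled knockout and 11.7 to 11.9% in pair-fed wild type mice. Levels are TMM-normalised CPM given as mean ± SD with n = 3, and differences are log2 fold changes ± standard error from edgeR's quasi-likelihood test. The adjusted p is by Benjamini-Hochberg over all 13097 genes, and a gene rose or fell only where it was under 0.05.

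Promoter sequences are shown because class II genes are known to share a proximal module in which an X box, bound by the RFX complex, lies upstream of a Y box, bound by NF-Y. Windows of 300 bases (250 before and 50 after each start site, RefSeq, GRCm38.p6) were searched, and results are given for 5 of the 8 genes. H2-Ab1 and Ciita had no window to search, and Cd74 is not reported here, so nothing is said of their promoters. The letters searched were GNAACT, an X-box core, followed by TGATTGG, the Y box, on either strand with their first bases 25 to 45 bases apart. These letters and limits were written with class II promoters known. The pair was found in H2-Aa (chr17:34287842-34287929, minus strand), H2-Eb1 (chr17:34305751-34305837, plus strand) and H2-DMb1 (chr17:34153072-34153159, plus strand), printed 5′ to 3′ along the gene with the X-box letters and then the Y-box letters in capitals.
H2-Aa: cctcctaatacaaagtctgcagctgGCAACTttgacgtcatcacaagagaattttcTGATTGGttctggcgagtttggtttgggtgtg
H2-Eb1: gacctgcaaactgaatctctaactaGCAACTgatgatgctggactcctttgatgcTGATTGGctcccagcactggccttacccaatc
H2-DMb1: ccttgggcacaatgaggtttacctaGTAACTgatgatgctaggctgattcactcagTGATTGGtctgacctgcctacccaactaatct

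The motif starts were 31 bases apart in H2-Aa, 30 in H2-Eb1 and 31 in H2-DMb1. The X-box letters began 81, 91 and 94 bases before the start site used for the window of H2-Aa, H2-Eb1 and H2-DMb1 in that order. The H2-Aa window (chr17:34287774-34288073) lies wholly outside the gene span given below, which ends at 34287771. Its letters are therefore further from that end than from the start site used. Of 32544 promoter windows of this length, 70 (0.215%) held the pair at that distance, while GNAACT alone stood in 42.7% and TGATTGG alone in 7.8%. The pair was not found in the windows at either start site of H2-DMa or in that of Ctss. A match is a description of the letters and no measure of binding, and no match says only that these letters are not in the window.

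By the table's mm10 coordinates the chain and DM genes lie together on chromosome 17, in the order H2-DMa (chr17:34122832-34139101), H2-DMb1 (chr17:34153191-34160229), H2-Ab1 (chr17:34263227-34269418), H2-Aa (chr17:34282751-34287771) and H2-Eb1 (chr17:34305867-34316674). Cd74 lies on chromosome 18, Ciita on chromosome 16 and Ctss on chromosome 3. The values below count reads over each gene's exons. H2-DMb1 has a near-identical neighbour, H2-DMb2, which is not analysed here, so reads may have been split between them and its level is uncertain.

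Per length of transcript, Cd74 stood highest in all 4 groups. It averaged 31.6 ± 9.34 CPM per kilobase in ethanol-fed labelled knockout mice, 69.3 ± 1.64 in pair-fed labelled knockout mice, 41.1 ± 5.32 in ethanol-fed wild type mice and 58.7 ± 14.1 in pair-fed wild type mice. H2-Aa, H2-Ab1 and Ctss came next and did not differ beyond their spread, with 12.4 ± 2.75, 12.2 ± 4.21 and 15.4 ± 4.04 CPM per kilobase in ethanol-fed labelled knockout mice. H2-Eb1 followed at 6.03 ± 2.54 CPM per kilobase in that group, and its partner chain E alpha is known not to be made in C57BL/6 mice. H2-DMa at 1.59 ± 0.542 and H2-DMb1 at 1.24 ± 0.267 CPM per kilobase overlapped each other there, and Ciita was lowest at 0.123 ± 0.0169. Ciita rested on 10 to 46 reads per library, against 618 to 1745 for Cd74.

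In labelled knockout mice ethanol feeding lowered all 8 genes, to between 36.3% (Ciita) and 52.7% (Ctss) of the pair-fed level. The median log2 fold change of the 8 was -1.13, against 0.04 for all genes tested. The 3 ethanol-fed values lay below the 3 pair-fed values for each of the 8, which was so for 20.4% of all genes, and 10.9% of all genes were called lower. The 8 calls were made in each of 9 other settings and with each of the 12 libraries left out. Of these settings 1, the run with no filter, repeats the main fit. In a bulk sample, fewer cells of a type and less RNA per cell cannot be told apart.

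Of the antigen-binding chains, H2-Aa, the A alpha chain, had 16.5, 10.8 and 12.5 CPM in ethanol-fed labelled knockout mice, against 29.7, 29.2 and 32.5 CPM in pair-fed ones. The pair-fed mice lay close together and the highest ethanol-fed mouse was well below the lowest of them, a log2 fold change of -1.20 ± 0.22 (adjusted p = 0.00211). H2-Ab1, the A beta chain, had 20.3, 11.1 and 12.2 CPM in ethanol-fed and 31.1, 31.5 and 32.6 CPM in pair-fed labelled knockout mice (-1.13 ± 0.22, adjusted p = 0.0037). Its first ethanol-fed mouse was again the highest of its group. H2-Eb1, the E beta chain, had 14.8, 8.97 and 6.49 CPM in ethanol-fed mice of this label, against 22.4, 22.0 and 20.7 CPM in pair-fed ones (-1.10 ± 0.25, adjusted p = 0.00695). It was the member with the widest relative spread under ethanol in this label, with a coefficient of variation of 42.1% in ethanol-fed and 4% in pair-fed mice.

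Cd74, the invariant chain that escorts new class II molecules, had 59.8, 35.6 and 38.6 CPM in ethanol-fed labelled knockout mice, against 96.7, 96.8 and 100.8 CPM in pair-fed ones (-1.13 ± 0.21, adjusted p = 0.00252). Ctss, the protease that trims it, had 27.2, 18.4 and 17.0 CPM in ethanol-fed and 37.8, 42.5 and 38.7 CPM in pair-fed labelled knockout mice. It had the smallest fold change of the 8 at -0.92 ± 0.23 (adjusted p = 0.0125). In both genes the groups were apart and the first ethanol-fed mouse was the highest of its group.

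The DM chaperone genes had few reads. H2-DMa, its alpha subunit, had 3.63, 2.41 and 1.87 CPM in ethanol-fed labelled knockout mice, against 5.46, 6.29 and 5.43 CPM in pair-fed ones (-1.11 ± 0.28, adjusted p = 0.0119). H2-DMb1, the beta subunit, had 1.99, 1.37 and 1.43 CPM in ethanol-fed mice, against 3.26, 3.93 and 3.35 CPM in pair-fed ones (-1.13 ± 0.26, adjusted p = 0.00893). Both subunits therefore stood apart between the groups with nearly the same fold change.

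Ciita had the largest fall of the 8. Its levels were 0.766, 0.821 and 0.624 CPM in ethanol-fed labelled knockout mice, against 2.67, 1.52 and 1.96 CPM in pair-fed ones, with 15, 15 and 10 reads against 46, 27 and 34. The log2 fold change was -1.46 ± 0.33 (adjusted p = 0.0075), and the groups did not overlap. Unlike the other 7 members, its spread was wider in pair-fed (coefficient of variation 28.5%) than in ethanol-fed mice (13.8%) of this label.

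**Figure D1:**
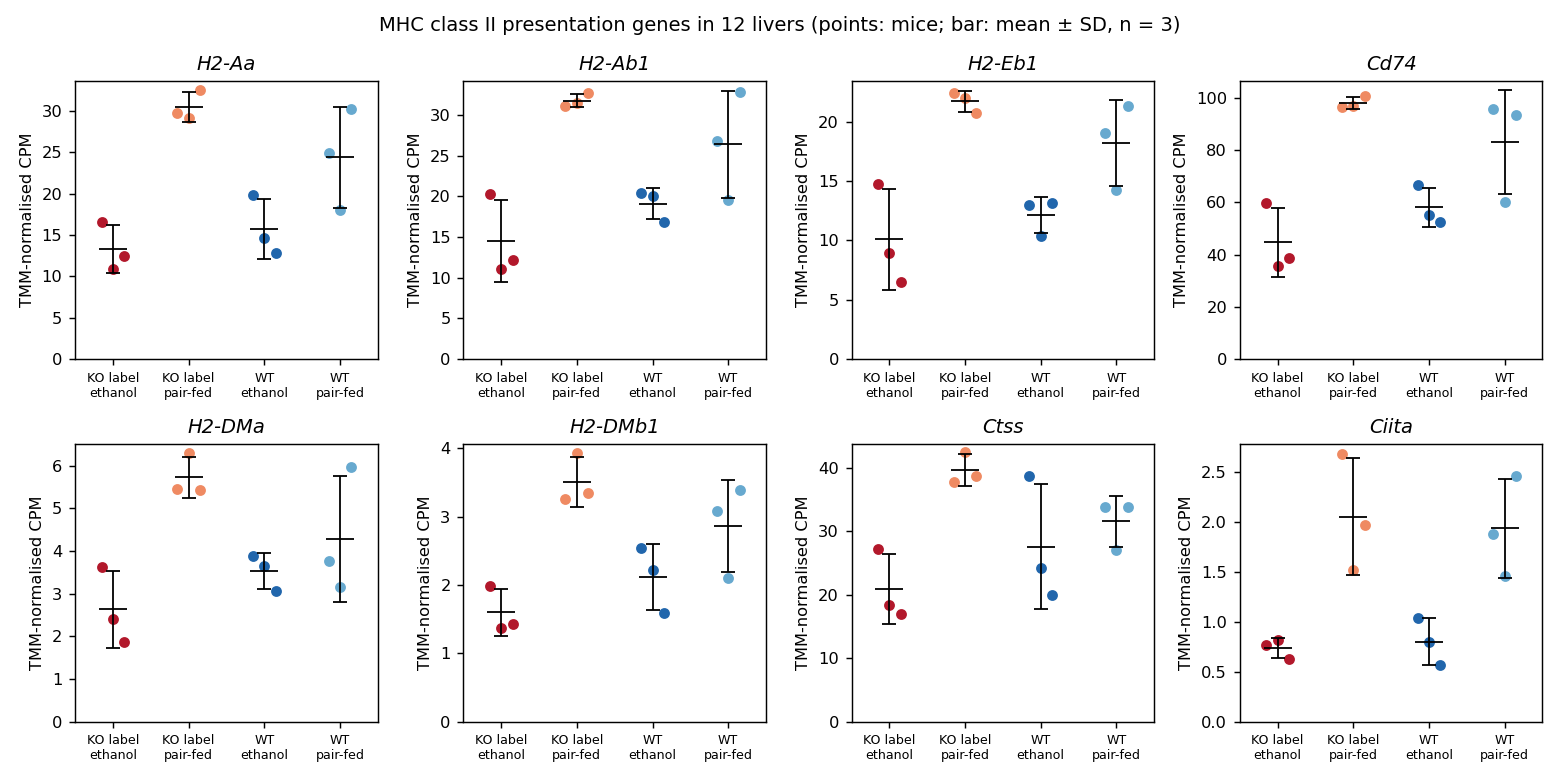
TMM-normalised CPM of the 8 class II presentation genes in each mouse, by group, with 3 points per group and a bar for mean ± SD; each axis starts at 0 and has its own scale. All 8 genes are lower in the 3 ethanol-fed than in the 3 pair-fed labelled knockout mice, while in wild type only H2-Eb1 and Ciita have no overlap.

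In wild type mice ethanol feeding lowered 2 of the 8 genes, Ciita and H2-Aa, and the other 6 did not pass. All 8 estimates were negative, with a median of -0.49 against 0.03 for all genes, and 14.5% of all genes were called lower. The ethanol-fed values lay below the pair-fed values without overlap for H2-Eb1 and Ciita, 2 of 8, beside 22.3% of all genes. Both counts of 2 are close to what those shares give for 8 genes, and neither is read as particular to the members.

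Ciita had 1.04, 0.798 and 0.564 CPM in ethanol-fed wild type mice, against 1.88, 1.46 and 2.46 CPM in pair-fed wild type mice. Every ethanol-fed mouse was below every pair-fed one, at -1.27 ± 0.33 (adjusted p = 0.0102). Without the third pair-fed wild type mouse the estimate was -1.06 and the adjusted p 0.0525. H2-Aa had 19.8, 14.6 and 12.9 CPM in ethanol-fed and 24.97, 18.0 and 30.2 CPM in pair-fed wild type mice. The second pair-fed mouse was below the first ethanol-fed one, and the fold change was -0.63 ± 0.21 (adjusted p = 0.0374). That call was lost in 3 of 9 other settings and 7 of 12 leave-outs, where its adjusted p reached 0.171.

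Of the members that did not pass in wild type, H2-Eb1 had 12.9, 10.4 and 13.1 CPM in ethanol-fed and 19.0, 14.3 and 21.3 CPM in pair-fed mice (-0.58 ± 0.24, adjusted p = 0.0819). Cd74 had 66.6, 55.2 and 52.4 CPM in ethanol-fed and 95.6, 60.0 and 93.3 CPM in pair-fed wild type mice (-0.51 ± 0.21, adjusted p = 0.0729). The second pair-fed mouse was the low one for both genes. H2-Ab1 had 20.4, 20.0 and 16.9 CPM in ethanol-fed and 26.7, 19.6 and 32.8 CPM in pair-fed wild type mice (-0.47 ± 0.22, adjusted p = 0.122). H2-DMb1 had 2.54, 2.22 and 1.59 CPM in ethanol-fed and 3.08, 2.10 and 3.39 CPM in pair-fed wild type mice (-0.43 ± 0.26, adjusted p = 0.219). In both the second pair-fed mouse lay within the ethanol-fed range. H2-DMa had 3.88, 3.65 and 3.08 CPM in ethanol-fed and 3.76, 3.16 and 5.96 CPM in pair-fed wild type mice (-0.28 ± 0.27, adjusted p = 0.459). Ctss had 38.7, 24.2 and 19.9 CPM in ethanol-fed and 33.8, 27.0 and 33.9 CPM in pair-fed wild type mice (-0.19 ± 0.23, adjusted p = 0.546). Its first ethanol-fed mouse was the highest of all 6 wild type mice, and the groups overlapped widely for both genes.

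The number of members called lower in wild type ranged from 0 to 4 over the leave-outs. It was 0 without the third pair-fed wild type mouse and 4 without the first ethanol-fed labelled knockout mouse. The latter enters that comparison through the shared spread, and the estimates of Cd74 (-0.51) and H2-Eb1 (-0.58) did not move. It was 3 without the first ethanol-fed wild type mouse, the second pair-fed wild type mouse or the third ethanol-fed labelled knockout mouse. It was 1 without any 1 of the 3 pair-fed labelled knockout mice, the second or the third ethanol-fed wild type mouse, or the first pair-fed wild type mouse.

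The difference between the ethanol effects of the labels was tested directly as an interaction, and none of the 8 members passed. All 8 estimates were negative, from -0.19 ± 0.47 for Ciita to -0.83 ± 0.39 for H2-DMa, with a median of -0.64 against 0.00 for all genes. Adjusted p ran from 0.936 to 0.970, and 0.00764% of all genes were called, which is 1 gene, Cyp2b10, a xenobiotic cytochrome P450. Before adjustment 1 member was under 0.05 by edgeR, namely Ctss at 0.0429, and 4 members each by DESeq2 and limma-voom, beside 5.31%, 5.55% and 4.94% of all genes. The 95% intervals were wide: that of Cd74 was -1.25 to 0.02 and that of Ciita -1.21 to 0.82. An effect that passed under 1 label and missed under the other is thus not shown to differ between them.

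Between labels within a feeding condition no member passed either. Under ethanol all 8 estimates were negative (labelled knockout over wild type), from -0.41 ± 0.28 for H2-DMa to -0.11 ± 0.36 for Ciita, with a median of -0.39 against -0.01 for all genes. In pair-fed mice all 8 were positive, from 0.08 ± 0.30 for Ciita to 0.42 ± 0.27 for H2-DMa, with a median of 0.28 against -0.01 for all genes. The shares of all genes called were 1.13% under ethanol and 0.87% in pair-fed mice, and by edgeR, DESeq2 and limma-voom 0 of the 8 had an unadjusted p under 0.05 in either. Each of these fits shares 1 spread per gene among the 4 groups. Within groups, edgeR's common coefficient of variation over all genes was 0.114 and 0.117 in pair-fed labelled knockout and wild type mice. It was 0.224 and 0.271 in the ethanol-fed ones. Over the 9 other settings the lowest adjusted p of a member in pair-fed mice was 0.107, for Ctss. Under ethanol 0 of 8 members lay below wild type without overlap, beside 6.21% of all genes. In pair-fed mice the labelled knockout values of Cd74 and Ctss lay above all wild type values, beside 11.8% of all genes. The authors' deposited table gives the same signs for the 8 members, with FDR values from 0.449 to 0.935 under ethanol and from 0.855 to 0.999 in pair-fed mice. The interval for Cd74 between labels was -0.83 to 0.07 under ethanol and -0.21 to 0.69 in pair-fed mice, so differences of those sizes remain possible.

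**Figure D2:**
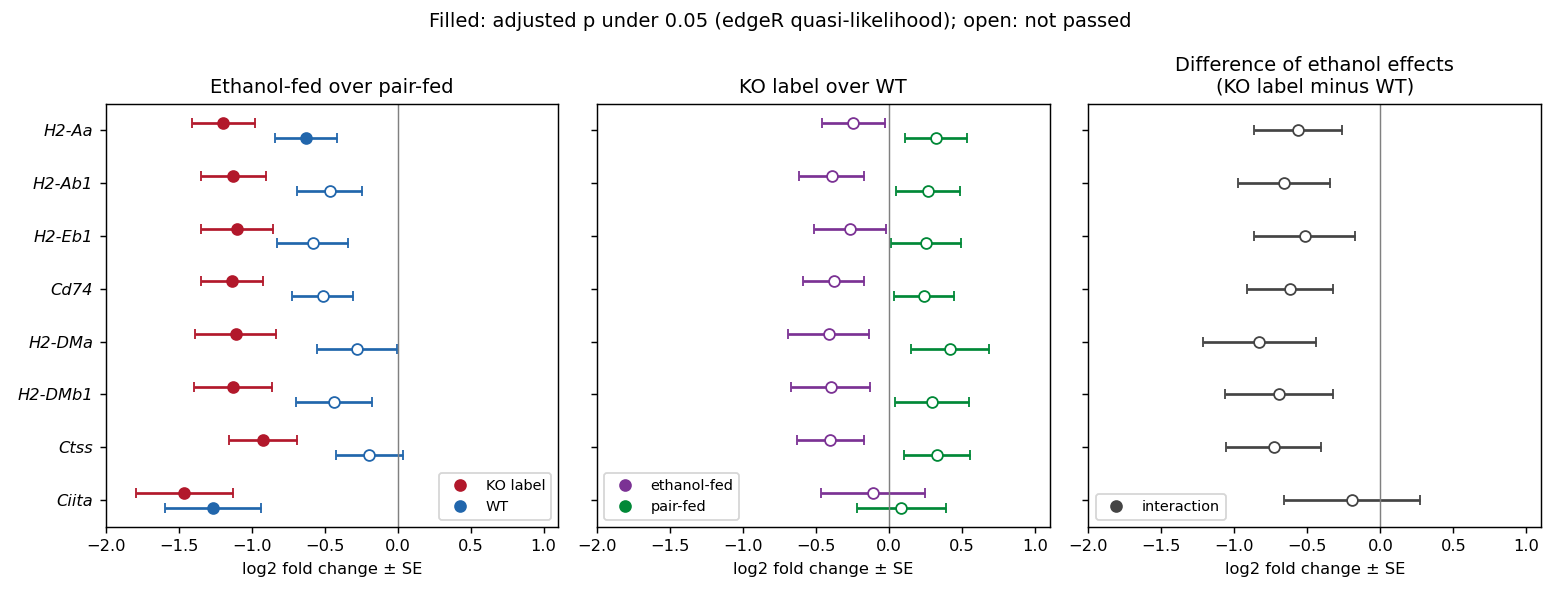
Log2 fold change ± standard error of each member for ethanol-fed over pair-fed mice in each label (left), labelled knockout over wild type mice under ethanol and when pair-fed (middle) and the difference of the ethanol effects (right), with filled points where the adjusted p was under 0.05. The filled points are the 8 members in labelled knockout mice and H2-Aa and Ciita in wild type mice, and each comparison of labels has open points only.

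The members moved together from mouse to mouse. Over the 12 libraries the 28 pairs of members had a Pearson r of log2 CPM from 0.769 to 0.984 (median 0.917). With group means removed r ran from 0.353 (H2-Eb1 and Ciita) to 0.935 (H2-Ab1 and Cd74), with a median of 0.769. These describe 12 libraries in which all members share depth, scaling and tissue sampling. The first ethanol-fed labelled knockout mouse and the first ethanol-fed wild type mouse were above their group mean for all 8 members, by 0.40 and 0.26 on the log2 scale on average. Among pair-fed wild type mice the second was below the group mean for all 8, with a mean log2 deviation of -0.36, and the third above it for all 8, with 0.30. Pair-fed labelled knockout mice were the most uniform, with a median coefficient of variation of 6.02%, against 27.9% in ethanol-fed labelled knockout, 17.9% in ethanol-fed wild type and 24.5% in pair-fed wild type mice.

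Cd74 and the A chain genes had ratios whose ranges overlapped between feeding groups in both labels. Cd74 stood at 2.62 ± 0.12 times H2-Ab1 per length in ethanol-fed and 2.61 ± 0.01 times in pair-fed labelled knockout mice, and at 2.57 ± 0.22 and 2.67 ± 0.32 times in ethanol-fed and pair-fed wild type mice. H2-Aa over H2-Ab1 stayed between 0.917 ± 0.147 (ethanol-fed wild type) and 1.07 ± 0.038 (pair-fed labelled knockout). Ctss over Cd74 per length was 0.49 ± 0.042 in ethanol-fed labelled knockout mice, against 0.421 ± 0.031 in pair-fed ones, and the lowest ethanol-fed ratio (0.46) was just above the highest pair-fed one (0.456). In wild type mice it was 0.485 ± 0.107 in ethanol-fed and 0.405 ± 0.055 in pair-fed mice, with overlap. The ratio of H2-Aa to Ciita per length was 112.7 ± 13.5 in ethanol-fed wild type mice, against 70.9 ± 3.10 in pair-fed wild type mice, and the lowest ethanol-fed ratio (102.6) was above the highest pair-fed one (74.5). It was 102.5 ± 25.03 in ethanol-fed and 87.7 ± 23.3 in pair-fed labelled knockout mice, where the ranges overlapped. The ratios of H2-Eb1 to H2-Ab1 and of H2-DMa to H2-DMb1 overlapped between feeding groups in both labels. Ciita rested on 11 to 42 reads per library in wild type mice. No test was made of these ratios, and no share over other gene pairs is at hand to set beside the separations.

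Genes that regulate and serve the class II route moved both ways. Of the 7 genes of the transcription complex on class II promoters, 3 rose and 0 fell with ethanol in labelled knockout mice, and 2 rose and 0 fell in wild type mice. Of all genes 13.7% rose in labelled knockout and 18.9% in wild type mice. Rfx5, the DNA-binding subunit of RFX, averaged 15.9 CPM in ethanol-fed and 8.58 CPM in pair-fed labelled knockout mice (0.89 ± 0.23, adjusted p = 0.0145), and 17.6 and 9.15 CPM in ethanol-fed and pair-fed wild type mice (0.95 ± 0.23, adjusted p = 0.00732). Nfya, a subunit of NF-Y, rose by 0.70 ± 0.19 in labelled knockout and 0.93 ± 0.19 in wild type mice. Rfxank, another RFX subunit, rose by 1.05 ± 0.25 in labelled knockout mice and stood at 0.53 ± 0.25 in wild type mice (adjusted p = 0.125). Rfxap, Nfyb, Nfyc and Creb1 passed in neither label. The 3 rises in labelled knockout mice were as few as 1 over the other settings and leave-outs.

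Ciita is known to be switched on through interferon gamma signalling, and 6 of 7 listed genes of that route were tested, Ifng itself being not analysed here. In labelled knockout mice 0 rose and 1 fell, Jak2, a kinase of the receptor (-0.58 ± 0.18, adjusted p = 0.0353), a call lost in 7 of 21 other settings. In wild type mice 3 rose, the receptor chain genes Ifngr1 (0.85 ± 0.29) and Ifngr2 (0.74 ± 0.15) and the kinase gene Jak1 (0.37 ± 0.11), and 1 fell, Irf1, a transcription factor (-0.56 ± 0.17). The call of Ifngr1 was lost in 10 of 21 other settings and that of Irf1 in 5.

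Of 9 other genes of endosomal antigen processing, 1 rose and 2 fell in each label. Ctsl, cathepsin L, which also cleaves the invariant chain in some cells, averaged 2097 CPM in ethanol-fed and 427 CPM in pair-fed labelled knockout mice (2.30 ± 0.40, adjusted p = 0.00242). In wild type mice it averaged 3114 CPM under ethanol and 474 CPM when pair-fed (2.72 ± 0.41, adjusted p = 0.000707). Ctsh, cathepsin H, fell by 0.66 ± 0.12 in labelled knockout and by 0.49 ± 0.12 in wild type mice on the log2 scale. Ifi30, the thiol reductase that unfolds antigens, fell in labelled knockout mice (-0.80 ± 0.22, adjusted p = 0.0214) and did not pass in wild type mice (-0.22 ± 0.22). Cst3, the cathepsin inhibitor cystatin C, fell in wild type mice (-0.41 ± 0.15, adjusted p = 0.043) and stood at -0.40 ± 0.15 in labelled knockout mice. Its call was lost in 10 of 21 other settings. Ctsb, Ctsd, Ctsz, Ctsc and Lgmn passed in neither.

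Of 5 genes of class II turnover and costimulation that were tested, 0 rose and 2 fell in labelled knockout mice and 1 fell in wild type mice. March1 and March8 encode ubiquitin ligases of the same family, and March1 is known to send class II molecules from the surface to degradation. March1 fell to 1.17 CPM in ethanol-fed labelled knockout mice, against 4.63 CPM in pair-fed ones (-1.96 ± 0.43, adjusted p = 0.00634), and stood at -0.64 ± 0.41 in wild type mice (adjusted p = 0.252). March8 fell in both, by 0.90 ± 0.13 on the log2 scale. Cd86, Cd83 and Cd40 passed in neither. Among other genes of the locus only H2-Ob, a subunit of the DM inhibitor, was tested, with -0.90 ± 0.53 in labelled knockout and -0.88 ± 0.51 in wild type mice, neither of which passed. Between labels 0 genes of these lists passed in either feeding condition, nor did any in the interaction.

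**Figure D3:**
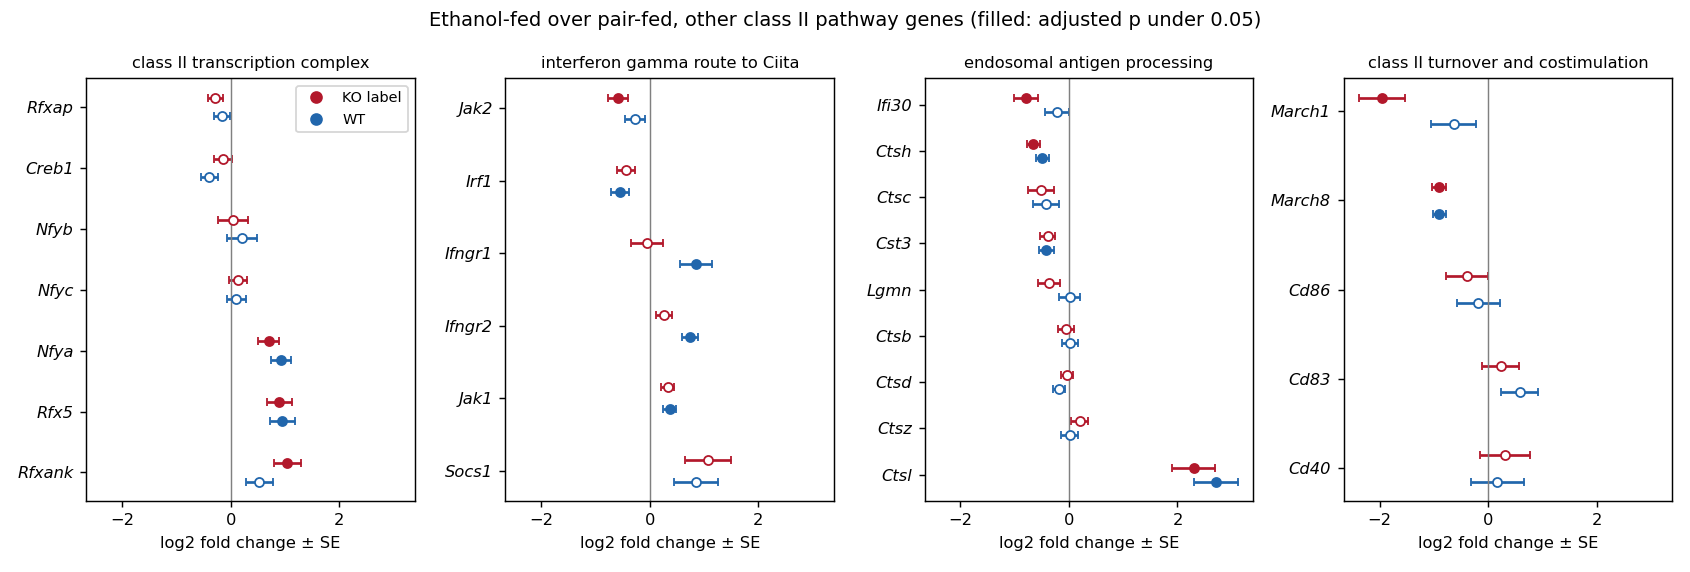
Log2 fold change ± standard error, ethanol-fed over pair-fed, of tested genes of 4 lists around class II presentation, for labelled knockout (red) and wild type mice (blue), with filled points where the adjusted p was under 0.05. Ctsl rises in both labels, Rfx5 and Nfya rise in both, and March8 falls in both.

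Many Kupffer cell, pan-leukocyte and B cell markers fell with the members in labelled knockout mice, where 10.9% of all genes were called lower. Dendritic cell markers were less uniform, with 8 of 10 estimates negative. The summed level of the 8 members was 89.5 to 145 CPM in ethanol-fed and 229.1 to 236.1 CPM in pair-fed labelled knockout mice, against 120.4 to 165.9 CPM in ethanol-fed and 145.6 to 223.4 CPM in pair-fed wild type mice. Of 12 Kupffer cell markers, 10 fell and 0 rose with ethanol in labelled knockout mice, with a median log2 fold change of -1.22. Their summed level was 284.9 to 384.1 CPM in ethanol-fed, against 621.7 to 779.9 CPM in pair-fed labelled knockout mice. Timd4, a receptor for dying cells, fell by 1.65 ± 0.31 on the log2 scale, and the complement gene C1qb fell by 1.22 ± 0.28. The count of 10 was 5 without the third ethanol-fed labelled knockout mouse. Of 6 pan-leukocyte markers 5 fell, among them Ptprc, which encodes CD45 (-1.34 ± 0.28), with sums of 36.9 to 51.1 CPM in ethanol-fed against 79.0 to 93.5 CPM in pair-fed labelled knockout mice. Of 7 tested B cell markers 4 fell, with sums of 3.12 to 7.51 CPM in ethanol-fed against 12.97 to 14.4 CPM in pair-fed labelled knockout mice, and of 10 dendritic cell markers 3 fell, with sums of 22.9 to 30.6 against 32.0 to 41.3 CPM. The pan-leukocyte count was 3 without the second pair-fed labelled knockout mouse, and the dendritic cell count 6 without the first ethanol-fed wild type mouse. The B cell count was 2 with a filter of 1 CPM in 6 libraries, which left Cd79b and Ms4a1 untested. Both were called in all 20 other settings that tested them. In this label the ethanol-fed sums lay below the pair-fed ones without overlap for 7 of 11 marker lists. They were these 4 and also the T and NK cell, monocyte and hepatocyte lists. Of all single genes 20.4% lay below in that way, a share for genes and not for sums. The part of cell content in the members' fall was not tested.

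In wild type mice 14.5% of all genes were called lower. There 0 of 12 Kupffer cell markers, 0 of 6 pan-leukocyte markers and 0 of 7 B cell markers passed. The Kupffer cell sum was 713.2, 332.6 and 289.5 CPM in the 3 ethanol-fed wild type mice, against 616.3, 419.9 and 563.3 CPM in pair-fed ones. The first ethanol-fed mouse was higher than every pair-fed wild type mouse, while the other 2 were lower than each. Without that mouse 11 of 12 Kupffer cell markers, 3 of 6 pan-leukocyte markers and 3 of 8 members (H2-Aa, Cd74 and Ciita) fell in wild type mice, beside 16.2% of all genes called lower. The lower number of Kupffer cell calls in wild type mice therefore rests on that mouse. Of 10 dendritic cell markers 3 fell in wild type mice too, Clec10a (-1.87 ± 0.50), Clec9a (-1.28 ± 0.28) and Batf3 (-1.21 ± 0.42). The call of Batf3 was lost in 9 of 20 other settings. The count of 3 was 1 with a filter of 1 CPM in 6 libraries, which left Clec10a and Batf3 untested. It was 4 without the first ethanol-fed wild type mouse. The ethanol-fed sums lay below the pair-fed ones without overlap for 4 of 11 lists in wild type mice, beside 22.3% of all single genes. They were the B cell, monocyte, stellate cell and hepatocyte lists.

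Marker lists of other cell types held calls in both directions. Of 10 sinusoidal endothelial markers, 2 rose and 0 fell in labelled knockout mice and 2 rose and 1 fell in wild type mice, and their sums overlapped between feeding groups in both labels (410.3 to 524.3 CPM in ethanol-fed and 423.7 to 584.1 CPM in pair-fed labelled knockout mice). Without the first ethanol-fed wild type mouse 6 of these 10 fell in wild type mice. Of 9 stellate cell markers 3 rose and 1 fell in labelled knockout and 2 rose and 1 fell in wild type mice. Of 10 T and NK cell markers 1 fell in labelled knockout and 2 in wild type mice, and 9 of the 10 estimates were negative in each label, with medians of -0.79 and -0.64. Their sums were 5.69 to 6.24 CPM in ethanol-fed and 8.31 to 9.71 CPM in pair-fed labelled knockout mice, and overlapped in wild type mice. Of 5 monocyte markers 1 fell in labelled knockout and 0 in wild type mice. Their sums, led by Fn1, which hepatocytes also make, were 1684 to 2316 CPM in ethanol-fed and 2500 to 3015 CPM in pair-fed labelled knockout mice, and 2200 to 2834 CPM in ethanol-fed and 3162 to 4117 CPM in pair-fed wild type mice. Of 2 neutrophil markers 1 fell in labelled knockout and 1 rose in wild type mice, and of 6 cholangiocyte markers 1 rose in labelled knockout mice and 1 rose and 1 fell in wild type mice. Of 7 hepatocyte markers 1 rose in labelled knockout mice and 2 fell in wild type mice. Their sums, led by Alb, were 78310 to 140600 CPM in ethanol-fed and 143800 to 164500 CPM in pair-fed labelled knockout mice, and 86280 to 118500 CPM in ethanol-fed and 153200 to 155400 CPM in pair-fed wild type mice. No tested marker was at 0 in any library, and the level of B cell and T cell markers was near 1 CPM or below it for most genes.

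**Figure D4:**
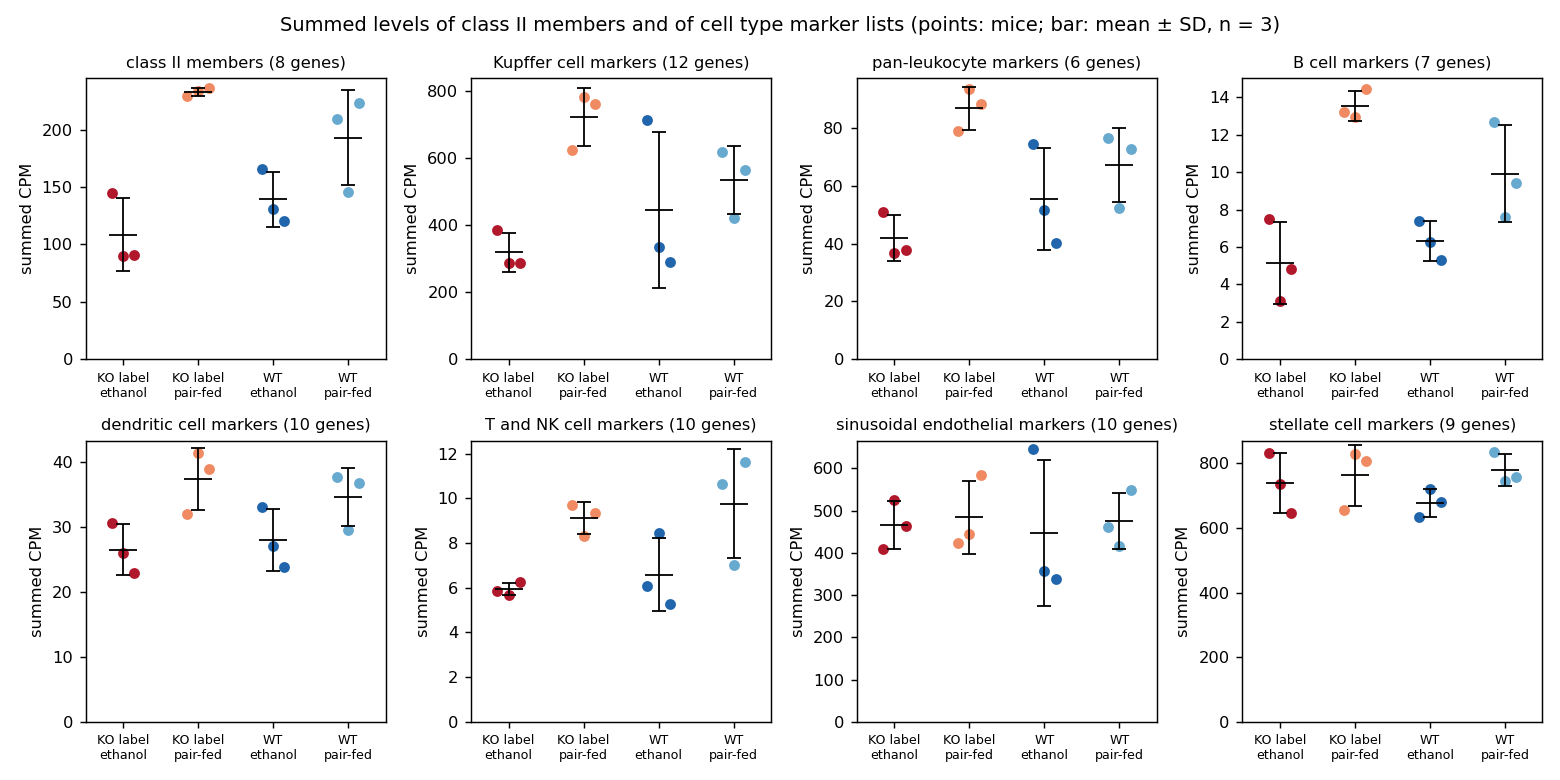
Summed CPM of the 8 members and of 7 marker lists in each mouse, by group, with 3 points per group and a bar for mean ± SD; each axis starts at 0. The Kupffer cell sum of 1 ethanol-fed wild type mouse, 713.2 CPM, stands apart from the 332.6 and 289.5 CPM of the other ethanol-fed wild type mice.

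Other genes averaging 1 CPM or more were ranked by likeness to the members, leaving out clone and predicted gene names and antigen receptor segments. Among the 11447 ranked, those most like the mean profile of the members over the 12 libraries were Pld4 (Pearson r 0.971), Ptprc (0.962), Ctla2b (0.953), Wfdc17 (0.952), Fgd2 (0.952), P2ry12 (0.951), Timd4 (0.95) and Rrm1 (0.948). With group means removed, their r lay between 0.733 (Rrm1) and 0.886 (Pld4). Pld4, an endolysosomal exonuclease, averaged 5.72 ± 1.92 CPM in ethanol-fed and 13.1 ± 1.55 CPM in pair-fed labelled knockout mice, and 7.08 ± 2.07 and 10.8 ± 2.68 CPM in ethanol-fed and pair-fed wild type mice. Ptprc averaged 5.24 ± 1.39 and 13.3 ± 2.05 CPM in ethanol-fed and pair-fed labelled knockout mice, and 7.51 ± 2.87 and 9.67 ± 2.19 CPM in ethanol-fed and pair-fed wild type mice. By list, the r of the markers that averaged 1 CPM or more had a median of 0.932 over 6 pan-leukocyte (0.813 to 0.962), 0.909 over 12 Kupffer cell (0.332 for Marco to 0.95) and 0.899 over 3 B cell markers (0.884 to 0.914). Dendritic cell markers were spread widely, with a median of 0.508 over 7 genes, from -0.134 for Cd24a to 0.86 for Wdfy4; these ends, like Marco, are named for their r. The median was 0.662 over 3 monocyte, 0.282 over 2 T and NK cell, 0.248 over 10 sinusoidal endothelial, 0.0815 over 7 hepatocyte, -0.0416 over 5 cholangiocyte and -0.245 over 9 stellate cell markers, and Csf3r, the single neutrophil marker, had 0.869. These r are descriptions of libraries that share groups and depth.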

How the data were processed

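The authors deposited unnormalised read counts of each gene in each library, with log2 CPM per library and, for their own genotype comparisons, log2 fold changes, p-values and FDR, per the file headers. The submitters' processing notes name STAR 2.5, featureCounts, Subread 1.5.3, edgeR 3.20.8 and mm10. Neither annotation nor strand setting is given in the sources used here; reads shared by overlapping or antisense genes may therefore count for either. The deposited log2 CPM differed from TMM values with a prior count of 0.25 by at most 7.59e-06.

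All 13097 genes passed edgeR's filterByExpr. Counts were scaled with TMM and fitted over all 12 libraries, 1 coefficient per group, with edgeR 4.0.16 in R 4.3.3 (robust quasi-likelihood, 8 residual degrees of freedom), which was tested on simulated data. For the interaction, 24% of simulated 2-fold and 91% of 4-fold changes were recovered. The simulation gave every group the same spread per gene, unlike the groups here, so it does not test the fit under unequal spread. The 5 contrasts set ethanol-fed over pair-fed mice within a label (2), labelled knockout over wild type within a diet (2), and the ethanol effects against each other (1). The ethanol and genotype contrasts share groups, so they are not independent. Standard errors are the size of the log2 fold change divided by the root of F. Benjamini-Hochberg adjustment ran over all genes. The 12 libraries came from individual mice, and within groups every pair differed by more than sampling noise (chi-square of 12.6 or more per degree of freedom).

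The members, the 16 lists beside them (144 genes, 112 in the table, 32 not analysed here), the contrasts and the motif letters were chosen with earlier results of these data known. All 8 members, any tested gene of the pathway lists, up to 4 markers per list with the smallest p, and the 8 most alike genes may be named; 1 pathway gene was left out and is not reported here. Alternatives were median-of-ratios and total-count scaling, 2 filters, DESeq2 1.42.0, limma-voom (limma 3.58.1) without and with 1 variance weight per group, only the groups compared, a replicate block and each library left out.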

Additional observations from a re-analysis of the deposited data

Results flagged for a closer look

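For 2 of 8 members each labelled knockout mouse lay on opposite sides of the wild type mean in the feeding conditions, which was so in the same direction for 4.13% of all genes. Each ethanol-fed labelled knockout mouse was below the ethanol-fed wild type mean, and each pair-fed labelled knockout mouse was above the pair-fed wild type mean, for H2-DMb1 and for Ctss. Single mice overlapped, since 27.2 CPM of Ctss in an ethanol-fed labelled knockout mouse was above 24.2 and 19.9 CPM in ethanol-fed wild type mice, and 3.26 CPM of H2-DMb1 in a pair-fed labelled knockout mouse was below 3.39 CPM in a pair-fed wild type mouse. The difference of the ethanol effects, labelled knockout minus wild type, was -0.6949 on the log2 scale for H2-DMb1 and -0.7305 for Ctss. Neither passed the interaction test over all genes, with adjusted p of 0.948 for H2-DMb1 and 0.936 for Ctss by edgeR's quasi-likelihood test.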

How the results depend on the processing

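In labelled knockout mice the 8 calls under ethanol were made in all 9 other settings, no filter among them, which repeats the main fit, and in all 12 leave-outs. In wild type mice the 2 calls became 1 with total counts, 1 with 1 variance weight per group, 1 with only the 2 groups compared, and 0 to 4 over the leave-outs. Between labels and in the interaction 0 members passed under any setting run. With a leave-out the sign turned for H2-DMa in wild type (-0.46 to 0.031, positive without the third pair-fed wild type mouse) and for Ciita. Between labels under ethanol Ciita ran from -0.31 to 0.13, positive without the first ethanol-fed wild type mouse. In pair-fed mice it ran from -0.15 to 0.29, and was -0.15 without the first pair-fed labelled knockout and -0.080 without the second pair-fed wild type mouse. Its interaction ran from -0.40 to 0.041, positive without the first pair-fed labelled knockout or the first ethanol-fed wild type mouse. The cause was not tested.

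Over all genes, the 148 calls between labels under ethanol became 448 with DESeq2, 27 with variance weights and 47 with only the 2 groups, and 69 to 697 over the leave-outs. The 114 in pair-fed mice became 253, 547 and 490 under the same settings, and 48 to 151. The interaction's 1 call became 15 with DESeq2 and 1 to 20 over the leave-outs. The ethanol calls ran from 1853 to 3867 over the leave-outs in labelled knockout mice (3222 with all libraries) and from 3023 to 4884 in wild type mice (4380). Total counts moved the all-gene median log2 fold change from 0.0375 to 0.138 in labelled knockout and from 0.0274 to 0.179 in wild type mice, and the share of higher calls from 55.7 to 69.9% and from 56.6 to 74.1%. Between labels, higher calls made up 66.9% under ethanol (53.1% with DESeq2, 88.9% with variance weights, 95.7% with only the 2 groups) and 80.7% in pair-fed mice (68%, 56.1% and 55.1%).

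The deviations of same-numbered mice had correlations from -0.168 to 0.118. With so few mice per group, low correlations cannot decide whether the numbers mark pairs, and the labels do not state it. A replicate block gave 8, 2, 0, 0 and 0 member calls over the 5 contrasts, and 2915, 3949, 118, 99 and 1 calls over all genes. Of the list genes called with ethanol, 20 of 42 in labelled knockout and 9 of 26 in wild type mice were called in every setting, recomputed after seeing the data. Ciita and the DM genes rest on few reads, which limits their precision.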
